A study of Xenopus laevis with 4 samples.

Results

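The alpha, beta and gamma tubulins of the Xenopus laevis gastrula were followed on 4 Affymetrix arrays. Their members were all probe sets that the platform annotation assigns to 1 gene whose symbol begins with tuba, tubb or tubg, leaving out the tubgcp genes, and whose mean signal over the 4 arrays was at least 100. The rule gave 18 probe sets of 10 genes, out of 9304 probe sets with 1 gene symbol and 9251 probe sets of all kinds that were tested. Of them 11 probe sets belonged to 5 alpha-tubulin genes, 6 to 4 beta-tubulin genes and 1 to a gamma-tubulin gene. The rule used the level over all arrays and not the difference between injections. The dimmest member was a tuba1cl.3.L probe set with a mean signal of 182, which passed only through 1 control array at 571. The brightest alpha, beta or gamma tubulin probe set left out for its signal was that of tubb2b.S at 67.9.

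The embryos had received radial injections as 4-cell embryos and were collected whole at stage 12. Controls carried 80 ng of control morpholino, and the xSGK1 embryos carried morpholino1 and morpholino2 against the kinase xSGK1, 40 ng apiece. All embryos came from in vitro fertilisation, and the labels name no strain or other treatment. A morpholino is an antisense oligonucleotide that blocks the translation or splicing of its target transcript, so the embryos were knocked down and not mutant. There were 2 independent experiments with 1 array of either injection (n = 2 per group), called control 1, xSGK1 1, control 2 and xSGK1 2 here. Nothing states how many embryos were pooled for an array. The study looked for genes regulated by SGK1, and the comparison here asks how the tubulin signals varied with injection and between the experiments. Signals are the deposited values scaled per array to a 2% trimmed mean of 500. A log2 change is that of signal + 16, which understates the change of dim probe sets.

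Alpha and beta tubulins form the heterodimer from which microtubules are built, and gamma tubulin, in a ring complex with the tubgcp proteins, starts new microtubules at centrosomes and on the spindle. Vertebrates carry several alpha and beta genes, called isotypes, whose proteins differ mostly in their acidic tails and whose use varies with tissue. In mammalian cells, free tubulin lowers the stability of tubulin transcripts while they are translated, so that transcript amounts of alpha and beta isotypes depend on the tubulin pool. In the allotetraploid Xenopus laevis the suffixes .L and .S mark homeologous copies of a gene, and near-identical tubulin transcripts can cross-hybridise. Probe sets that end in _x_at hold probes that also match other sequences, and those ending in _a_at match several transcripts of a gene. Of the 18 members 7 carry such a suffix. The values of those ending in _x_at are uncertain as to the gene, and of those ending in _a_at as to the transcript. Probe sets of 1 gene are told apart below by the end of their identifiers, such as S1_at.

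The 4 arrays had median signals of 161 to 174. The targeted transcript, sgk1.L, measured 2321 and 2839 in the control arrays and 3071 and 3300 in the xSGK1 arrays, and morpholinos act on translation or splicing, so these signals do not check the knockdown. Markers of all 3 germ layers were measured: each of the 3 mesoderm genes searched and the sox17a copies of the endoderm were above the signal minimum, as were sox2, sox3 and zic1 of the neural plate. Of the 8 genes of the neuron list on the array, only neurog2.S reached the signal minimum, by 1 of its 2 probe sets, at 127 and 136 in controls 1 and 2 and 114 and 44.2 in xSGK1 1 and 2, and it was not called (log2 change -0.74). The others, elavl3.L, ncam1.L, ncam1.S, neurod1.L, neurog2.L, tubb2b.S and tubb3.L, had mean signals under 100. The summed signal of the epidermis markers was 8954 and 4769 in the control arrays and 5528 and 2177 in the xSGK1 arrays. For beta-actin, the array's control probe sets at the 3' end read 3.11 and 2.24 times those at the 5' end in controls and 3.38 and 2.06 times in xSGK1 arrays, which differed between the experiments more than between injections. For Gapd the ratios were far higher, at 16.6 and 16.4 in controls 1 and 2 and 17.7 and 15.6 in xSGK1 1 and 2. The part of these differences in the tubulin values was not tested. In RNA from whole embryos, fewer cells of a type and less RNA per cell cannot be told apart.

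Across the family, most alpha and beta tubulin probe sets were lower in xSGK1 than in control embryos, while the single gamma tubulin was higher. The log2 change was below 0 in both experiments for 14 of the 18 probe sets, above 0 in both for 1, and of opposite sign for 3. Over all probe sets tested 31.9% were lower in both experiments and 40.8% higher in both. The median log2 change was -0.33 over the 11 alpha probe sets, with a range of -1.85 to 0.02, and -0.29 over the 6 beta probe sets, with a range of -1.07 to 0.46. It was 0.04 over all 9251 probe sets. With the alpha probe sets that carry a suffix left out, 5 remained and their median was -0.13. Several probe sets measure the same gene, so these are not independent members.

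Single probe sets were tested with limma over all 9251 probe sets, with Benjamini-Hochberg adjustment. In the fit without a block, no tubulin had an adjusted p under 0.999, and that fit called 0 probe sets in all, with 334 (3.61%) at an unadjusted p under 0.05. Among the 18 members 1 had such an unadjusted p, the tubb.L probe set S1_at (0.00361). With the experiment as a block, which takes the difference between experiments out of the spread, 740 probe sets (8%) were called, 3.91% lower and 4.09% higher. In that fit 5 tubulin probe sets fell, 3 of tuba1cl.3.L and 2 of tubb.L, and 1 rose, that of tubg1.S. Among those that fell, S1_at of tuba1cl.3.L had passed the signal minimum only through 1 control array. The words fell and rose below refer to the blocked limma fit. Both xSGK1 arrays lay below both controls for 4 members (13.8% of all probe sets) and above both for 1 (16.3%).

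**Figure D1:**
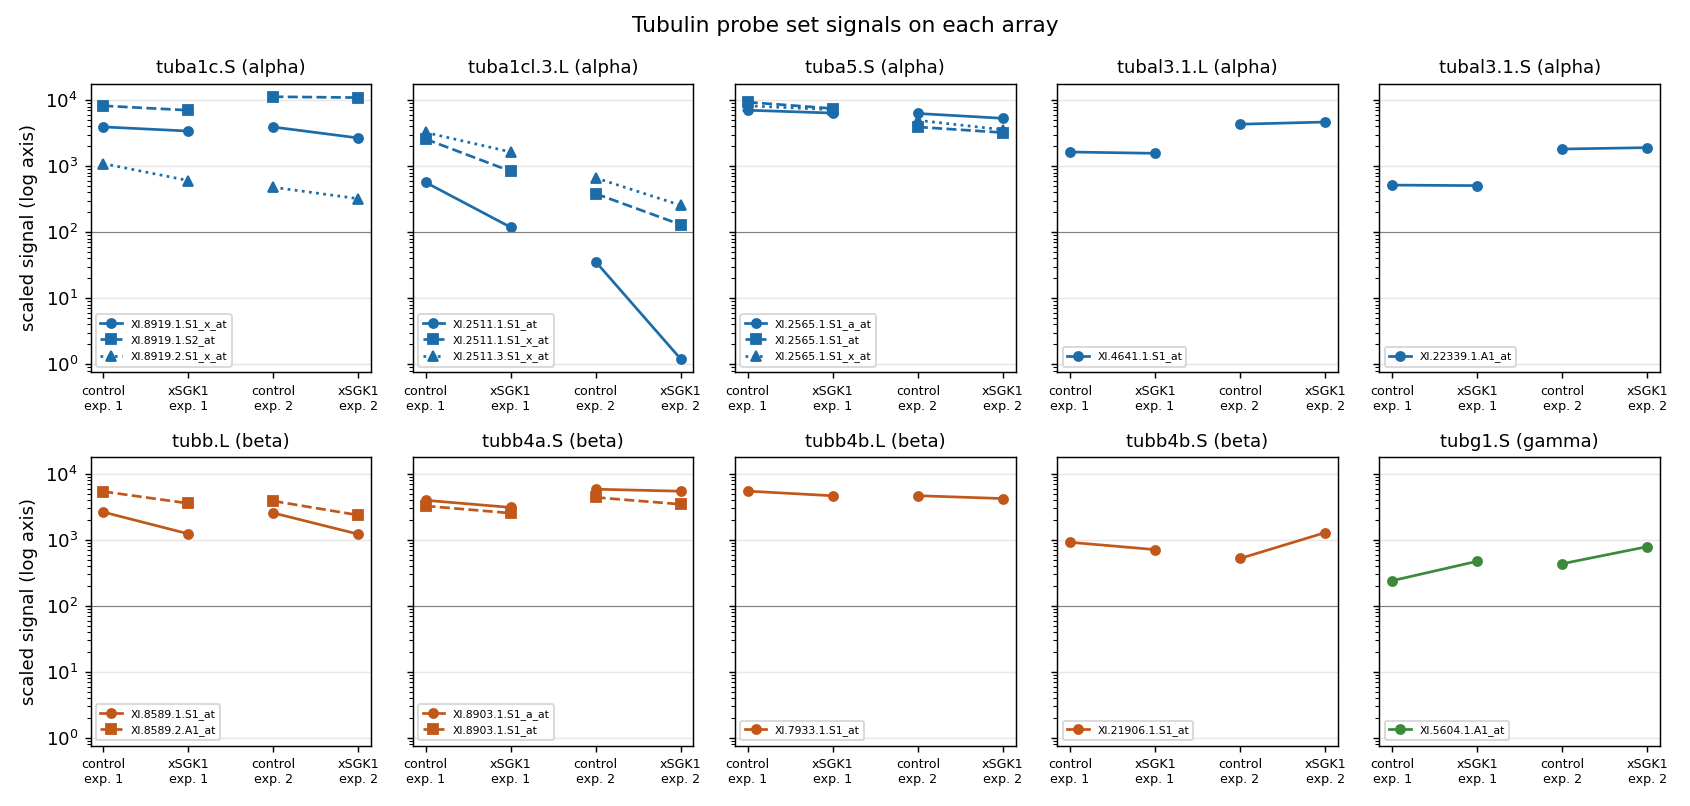
Scaled signal (log axis) of each tubulin probe set on the 4 arrays, 1 panel per gene, with a line joining the control and the xSGK1 array of 1 experiment and a grey line at the minimum mean signal of 100. Both tubb.L probe sets drop in each experiment, tuba1cl.3.L drops between injections and between experiments, the tubal3.1 homeologs step up only between experiments, and tubg1.S goes up with injection.

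Among the beta tubulins tubb.L, the Xenopus copy of the broadly expressed beta-tubulin gene TUBB of mammals, fell by both of its probe sets. Its probe set S1_at gave 2647 and 2565 in controls 1 and 2 and 1239 and 1223 in xSGK1 1 and 2. The control arrays were nearly equal, as were the xSGK1 arrays, and the groups did not overlap. The xSGK1 signal was 0.468 times the control signal in experiment 1 and 0.477 times in experiment 2. The log2 change was -1.07 ± 0.12 (SE), with limma's adjusted p of 0.0188 in the blocked fit. This probe set was singled out earlier for its change, so its values are a description.

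The second tubb.L probe set, A1_at, gave 5425 and 3890 in controls 1 and 2 and 3592 and 2378 in xSGK1 1 and 2. Both xSGK1 arrays again lay below both controls, but here the experiments differed too. The log2 changes were -0.59 in experiment 1 and -0.71 in experiment 2, and -0.65 ± 0.10 (SE) together, with limma's adjusted p of 0.0264 in the blocked fit. The 95% intervals of the 2 probe sets, -1.36 to -0.79 and -0.89 to -0.41, overlap, and the difference between them was not tested. The blocked call of A1_at was lost without the intensity trend of the variance (adjusted p = 0.0663). With 1 array left out and no block, the change of S1_at was -1.09 to -1.05. That of A1_at was -0.41 without control 1, -0.35 without xSGK1 2, -0.95 without xSGK1 1 and -0.89 without control 2. Only the size of the change is given for these fits, since each leaves 1 array in a group.

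The 2 probe sets of tubb4a.S, a class IV beta tubulin, had lower xSGK1 than control signals in each experiment without passing the test. S1_at gave 3281 and 4419 in controls 1 and 2 and 2551 and 3478 in xSGK1 1 and 2. Its log2 change was -0.36 in experiment 1 and -0.34 in experiment 2 (95% interval -0.59 to -0.11, limma's adjusted p = 0.0787 in the blocked fit). The other, S1_a_at, gave 3994 and 5882 in controls and 3115 and 5485 in xSGK1 arrays, with an interval of -0.48 to 0.03. The injections overlapped in both, with experiment 2 the higher one.

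For tubb4b.L, whose mammalian counterpart is a beta tubulin of many tissues and of cilia, the signals were 5500 and 4688 in controls 1 and 2 and 4677 and 4244 in xSGK1 1 and 2. Both xSGK1 arrays were below both controls, by a small margin, and the 95% interval of the log2 change was -0.41 to 0.03. Its homeolog tubb4b.S behaved differently in the 2 experiments. It gave 922 in control 1 and 715 in xSGK1 1, but 524 in control 2 and 1291 in xSGK1 2. The log2 change was therefore -0.36 in experiment 1 and 1.27 in experiment 2, and the interval of their mean, -0.42 to 1.34 includes 0. With 1 array per injection and experiment, a difference between the experiments in their response could not be tested.

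**Figure D2:**
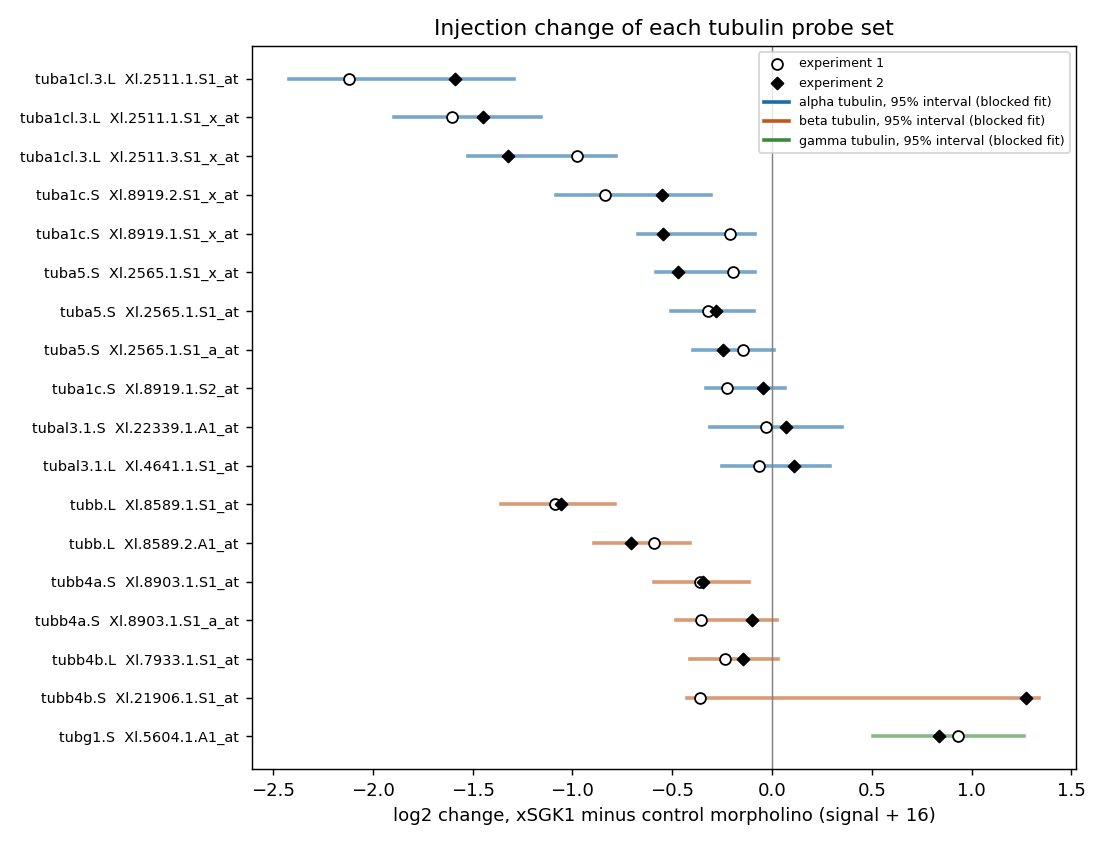
Log2 change of signal + 16, xSGK1 minus control morpholino, for the 18 probe sets: open circles are experiment 1, diamonds experiment 2, and bars the 95% intervals of the blocked limma fit, coloured by isotype. The bars of tuba1cl.3.L and tubb.L lie wholly below 0. So do those of both tuba1c.S S1_x_at, of tuba5.S S1_at and S1_x_at, and of tubb4a.S S1_at, which were not called. The bar of tubg1.S lies wholly above 0, and tubb4b.S has the widest bar, with its experiments on opposite sides of 0.

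Among the alpha tubulins tuba1cl.3.L fell by all 3 of its probe sets, each lower in both experiments. Its 2 S1_x_at probe sets are uncertain as to the gene, and S1_at passed the signal minimum only through control 1. The fall of S1_at is therefore a description and adds no support. The dimmer of the 2 S1_x_at probe sets of tuba1cl.3.L gave 2583 and 384 in controls 1 and 2 and 841 and 130 in xSGK1 1 and 2. Within each experiment the xSGK1 signal was about the same share of the control, 0.325 and 0.340 times. The signal of xSGK1 1 was higher than that of control 2, so the groups overlapped. The log2 change was -1.52 ± 0.15 (SE), with limma's adjusted p of 0.0188 in the blocked fit.

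The brighter S1_x_at gave 3255 and 666 in controls and 1646 and 256 in xSGK1 arrays of experiments 1 and 2, a log2 change of -1.15 ± 0.15 (SE) with limma's adjusted p of 0.0232 in the blocked fit. The probe set without a suffix, S1_at, gave 571 and 35.8 in controls and 119 and 1.20 in xSGK1 arrays. The last of these values is near the bottom of the scale and has no reliable ratio. Its log2 change was -1.85 ± 0.23 (SE), with limma's adjusted p of 0.0232, and was -3.16 with an offset of 1 and -1.204 with an offset of 64 in the blocked fit. The 3 probe sets were ordered alike, with control 1 highest, then xSGK1 1, control 2 and xSGK1 2.

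These falls of tuba1cl.3.L rest on the pairing within experiments. Without a block, leaving out 1 array moved the log2 change of the dimmer S1_x_at to -0.17 without control 1 and -0.25 without xSGK1 2, and to -2.80 without xSGK1 1 and -2.88 without control 2. For the brighter S1_x_at the same 4 fits gave -0.02, 0.15, -2.46 and -2.28, and for S1_at -0.10, -0.37, -3.34 and -3.61. Each of these fits leaves 1 array in a group, so only the size of the change is given. The fit without xSGK1 1 sets controls as unlike as 2583 and 384 (the dimmer S1_x_at) against xSGK1 2 alone, the lowest array.

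The other alpha tubulins were lower by less, or equal. For tuba5.S, the probe set S1_at gave 9348 and 3931 in controls 1 and 2 and 7495 and 3235 in xSGK1 1 and 2 (log2 change -0.30, 95% interval -0.51 to -0.09). Its other probe sets had intervals of -0.58 to -0.09 for S1_x_at and -0.40 to 0.01 for S1_a_at. All 3 were lower in both experiments, and none passed the blocked test, with limma's adjusted p of 0.0821, 0.0932 and 0.184.

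The 3 probe sets of tuba1c.S were lower in both experiments, with log2 changes from -0.70 to -0.13. The dimmer S1_x_at gave 1096 and 479 in controls and 606 and 322 in xSGK1 arrays (log2 change -0.70, limma's adjusted p = 0.0527 in the blocked fit), and 4 of its 8 blocked fits called it. The brighter S1_x_at gave 3944 and 3924 in controls and 3411 and 2679 in xSGK1 arrays, so that the groups did not overlap (log2 change -0.38, adjusted p = 0.101). The brightest, S2_at, gave 8236 and 11300 in controls and 7053 and 10970 in xSGK1 arrays (log2 change -0.13, interval -0.33 to 0.06). The change of S2_at shrank to -0.02 with quantile and -0.03 with cyclic loess normalization. Of these 3 probe sets 2 carry the _x_at suffix.

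The homeologs tubal3.1.L and tubal3.1.S gave almost equal signals in control and xSGK1 embryos. For tubal3.1.L they were 1642 and 1569 in experiment 1 and 4334 and 4674 in experiment 2, control before xSGK1. For tubal3.1.S they were 518 and 508 in experiment 1 and 1822 and 1913 in experiment 2. The log2 changes were both 0.02, with 95% intervals of -0.25 to 0.29 and -0.31 to 0.35, and the sign of that of tubal3.1.S turned to -0.00232 with quantile and -0.00201 with cyclic loess normalization.

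The single measured gamma tubulin, tubg1.S, rose. It gave 241 and 436 in controls 1 and 2 and 475 and 792 in xSGK1 1 and 2. Both xSGK1 arrays lay above both controls, though control 2 came close to xSGK1 1. The ratio was 1.97 in experiment 1 and 1.82 in experiment 2, and the log2 change was 0.89 ± 0.15 (SE), with limma's adjusted p of 0.0312 in the blocked fit. With 1 array left out and no block it was 0.48 without control 1 and 0.53 without xSGK1 2. It was 1.24 without xSGK1 1 and 1.29 without control 2. The homeolog tubg1.L had signals of 18.9 to 85.2, under the minimum, and was not compared.

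Between the experiments the tubulins differed more widely than between injections. With the injection as a term, limma called 13 of the 18 probe sets, 7 lower and 6 higher in experiment 2, in a fit that called 40.8% of all probe sets, 19.9% lower and 20.9% higher. The largest differences were those of tuba1cl.3.L, whose 3 probe sets had log2 differences of -2.44, -2.63 and -3.24. The last is that of S1_at, which passed the signal minimum only through control 1. Both arrays of experiment 2 lay below both of experiment 1 for 7 members (30.2% of all probe sets) and above both for 5 (31.3%).

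**Figure D3:**
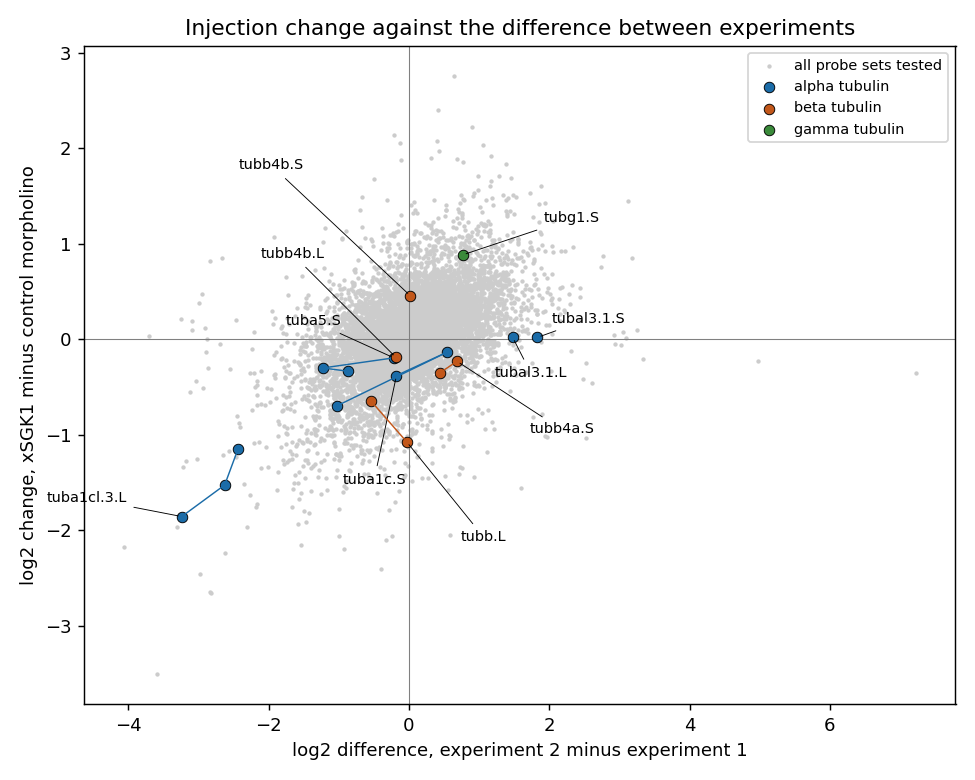
Log2 change between injections (vertical) against the log2 difference between experiments (horizontal) for every probe set tested (grey) and the tubulins (coloured by isotype, probe sets of 1 gene joined by a line). The tuba1cl.3.L probe sets lie at the lower left, tubal3.1.L and tubal3.1.S at the right on the zero line of the injection axis, tubb.L below the centre and tubg1.S at the upper right.

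The tubal3.1 homeologs differed the other way. The mean signal of tubal3.1.L was 2.81 times as high in experiment 2 as in experiment 1 (log2 difference 1.48 ± 0.11 SE, limma's adjusted p = 0.00175), and that of tubal3.1.S was 3.64 times as high (1.83 ± 0.14 SE, adjusted p = 0.00175). For both the control and the xSGK1 embryos gave steps of like size, 1.39 and 1.57 for tubal3.1.L and 1.78 and 1.88 for tubal3.1.S. Both arrays of experiment 2 lay far above both arrays of experiment 1.

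In tuba5.S the probe sets disagreed on the size of the difference between experiments. It was -1.23 for S1_at, -0.87 for S1_x_at and -0.21 for S1_a_at, the last not called (limma's adjusted p = 0.0870). In tuba1c.S they disagreed on the sign: S2_at was higher in experiment 2 by 0.55 and the dimmer S1_x_at lower, at -1.02, both called, and the brighter S1_x_at differed by -0.18 and was not. No single direction can therefore be given for tuba1c.S between the experiments.

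The beta and gamma tubulins differed less. The tubb.L probe set S1_at had a difference between experiments of -0.03 (limma's 95% interval -0.32 to 0.25), whereas A1_at was lower in experiment 2, at -0.53 (limma's adjusted p = 0.00977). Both tubb4a.S probe sets were higher in experiment 2, by 0.44 and 0.68, and so was tubg1.S, by 0.77 (adjusted p = 0.0127). Those of tubb4b.L and tubb4b.S were not called. The median difference was -0.87 over the alpha and -0.01 over the beta probe sets, against 0.01 over all. The alpha median turned to 0.55 when suffixed probe sets were left out, which kept 5 of 11. With 1 array left out and no injection term, the differences of tuba1cl.3.L shrank most without control 1 for the dimmer S1_x_at (-1.82) and S1_at (-2.18), and without xSGK1 2 for the brighter S1_x_at (-1.77). That of tubg1.S was 0.30 without control 1, 0.35 without xSGK1 2, 1.23 without xSGK1 1 and 1.18 without control 2. Each of these fits leaves 1 array in an experiment, so only the size of the difference is given.

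The order of arrays seen for tuba1cl.3.L was not particular to it. It was also that of every tuba5.S probe set and of the dimmer S1_x_at of tuba1c.S. Among the markers, ccno.L and the endoderm gene sox17a.L (587, 530, 494 and 451) had it too. How many of all probe sets have this order was not counted. It was also the order of the epidermal keratin gene krt12.4, and of the summed epidermis markers, a sum that includes krt12.4. The gene krt12.4.L gave 3922 and 974 in controls 1 and 2 and 1402 and 75.4 in xSGK1 arrays, and krt12.4.S gave 2173 and 541 in controls and 713 and 59.5 in xSGK1 arrays. The other markers of the epidermis list, tfap2a.L and grhl1.L, did not have the order of tuba1cl.3.L and did not pass the test of injection. On control 1, xSGK1 1, control 2 and xSGK1 2, tfap2a.L gave 980, 1682, 1357 and 1018, and grhl1.L gave 1879, 1731, 1897 and 1024. The mesoderm marker msgn1.L had the order of tuba1cl.3.L (1108, 569, 452 and 208 on control 1, xSGK1 1, control 2 and xSGK1 2). The other genes of the mesoderm list did not. On the same arrays eomes.L gave 1292, 1673, 2118 and 2785, the reverse order, and tbxt.S 2752, 3314, 4018 and 2580. The part of these tissues in the tuba1cl.3.L values was not tested. Of the multiciliated cell markers, cells whose axonemes hold many microtubules, ccno.L gave 1149 and 964 in controls and 1051 and 632 in xSGK1 arrays and dnai1.L 136 to 195 on the 4 arrays, while tekt2.S, tekt2.L and myb.S were under 100 on all. Neither of the former passed the test.

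**Figure D4:**
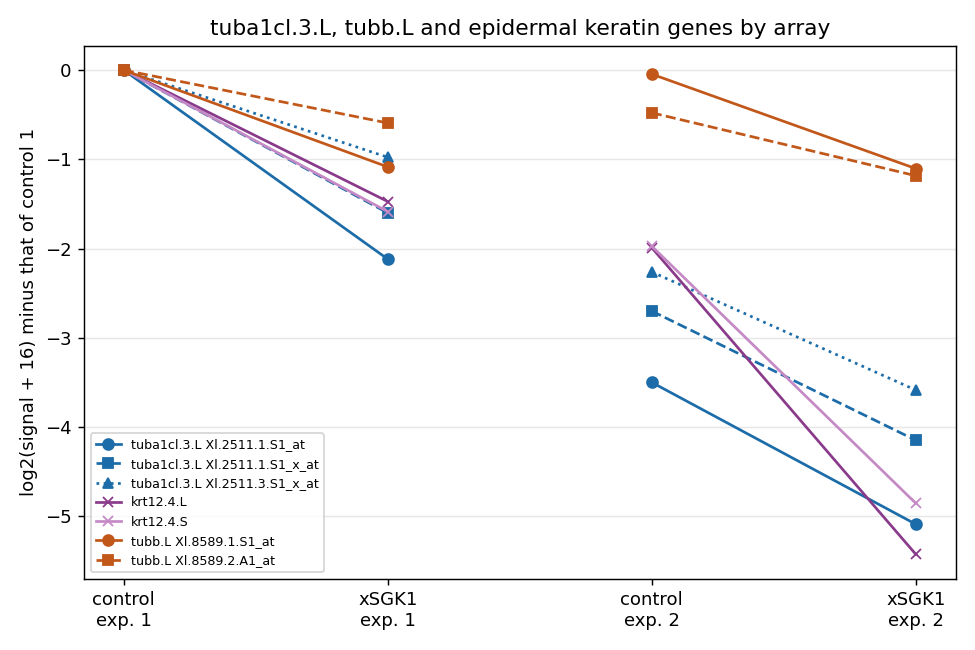
Log2(signal + 16) of tuba1cl.3.L, tubb.L and the keratin homeologs krt12.4.L and krt12.4.S on each array, relative to control 1, with lines joining the injections of 1 experiment. The tuba1cl.3.L and keratin profiles drop in both experiments and are lower in experiment 2, while the tubb.L profiles return to within 0.48 of their start in control 2.

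The genes whose profile was most like that of a tubulin were sought among 6178 or 6177 other single-gene probe sets, by the root mean square difference of log2 values centred over the 4 arrays. Those nearest to tubb.L by S1_at were pcdh1.L (0.05), impdh2.L (0.07), rpf2.S (0.08), tmem254.S (0.09) and etaa1.L (0.09). Of these pcdh1.L, a protocadherin gene, gave 729 and 772 in controls and 359 and 332 in xSGK1 arrays, and impdh2.L, an enzyme that makes guanine nucleotides, 3283 and 3246 against 1687 and 1462. Those nearest by A1_at were snapc5.L, elof1.S, rpap3.L, rpl21.L and rpl29.L, at 0.02 to 0.05. The lists of the 2 tubb.L probe sets share no gene. For tuba1cl.3.L, added after its values were seen and by its brightest probe set, the nearest were hoxa7.L (0.08), nxpe2.L (0.11), vill.S (0.15), uqcrq.S (0.20) and agr2.S (0.27). Of these hoxa7.L gave 258 and 33.3 in controls 1 and 2 and 113 and 4.70 in xSGK1 1 and 2. It passed the signal minimum only through experiment 1. With 4 arrays such a likeness rests on 4 points and is only a description.

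Genes that act on tubulin were taken from lists of names, 1 probe set per gene. Of the 5 measured genes of the gamma-tubulin ring complex and the factors that attach it, 1 rose and none fell, with a median log2 change of 0.12, where 4.09% of all probe sets rose and 3.91% fell in the same blocked fit. It was tubgcp3.S, the gamma-tubulin partner of the small complex that nucleates microtubules, which gave 103 and 245 in controls 1 and 2 and 320 and 613 in xSGK1 1 and 2 (log2 change 1.38 ± 0.17 SE, limma's adjusted p = 0.0232 in the blocked fit). Like tubg1.S it was higher in experiment 2 as well, by 1.02. The larger ring subunit gene tubgcp6.L gave 264 and 160 in controls and 130 and 126 in xSGK1 arrays and did not pass (adjusted p = 0.125), nor did the augmin subunit gene haus3.L (648 and 1015 against 787 and 1500).

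The 18 measured genes of tubulin folding include the CCT chaperonin, prefoldin and the tubulin cofactors. Of these 0 passed in the blocked fit, where 8% of all probe sets did, and their median was -0.03. With 18 genes, a count of 0 is not far from that share. The nearest to the threshold were both copies of tcp1, a subunit of the chaperonin. The signal of tcp1.L was 2286 and 2070 in controls and 1586 and 1456 in xSGK1 arrays (log2 change -0.51, limma's adjusted p = 0.0520), and that of tcp1.S was 2387 and 2726 against 1805 and 1893 (-0.46, adjusted p = 0.0607). In both the groups did not overlap, with xSGK1 below control, as was so for 13.8% of all probe sets. The tubulin cofactor gene tbcb.S leaned the other way (0.57, adjusted p = 0.0851).

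Of 3 measured genes of the tubulin autoregulation and modification list 1 rose (4.09% of all probe sets). This was agbl5.L, whose mammalian counterpart is a carboxypeptidase that removes branching glutamates from tubulin tails, at 350 and 615 in controls and 746 and 1086 in xSGK1 arrays (0.93 ± 0.15 SE, limma's adjusted p = 0.0286 in the blocked fit). Like tubg1.S, agbl5.L was also higher in experiment 2, by 0.66 on the log2 scale. The tubulin deacetylase genes hdac6.L and sirt2.S had changes of -0.25 and 0.22 between injections and did not pass. The autoregulation gene scaper.L had a mean signal of 32.0 and was not tested, so the 3 measured genes were all of modification. Of 25 measured genes of microtubule-binding proteins 2 rose and none fell, with a median of 0.12. That is 8% of the list, no more than the 8% of all probe sets called in either direction. They were dctn1.L, the dynactin subunit that binds microtubules (651 and 2731 in controls, 1596 and 4298 in xSGK1 arrays, adjusted p = 0.0315), and mapre3.S, an end-binding protein (113 and 342 against 238 and 602, adjusted p = 0.0354). Both were also higher in experiment 2, by 1.73 and 1.38 on the log2 scale. A second mapre3.S probe set gave 2.10 to 3.80 over the 4 arrays and was not tested. The spindle motor gene kif11.S was lower without passing (-0.59, limma's adjusted p = 0.0542 in the blocked fit). Its homeolog kif11.L had a log2 change of 0.12 and did not pass either.

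The actin list, of the other main cytoskeletal family, gave 0 calls among 3 measured genes with a median of 0.09. In the same blocked fit 8% of all probe sets were called, so 0 of 3 is near that share. Measured were the actin genes actb.L and actg1.L and the actin-related gene actr3.S. For actr3.S the signals were 1116 and 1957 in controls and 1288 and 2702 in xSGK1 arrays. Its log2 change had a 95% interval of 0.02 to 0.65 (limma's adjusted p = 0.152 in the blocked fit). Between experiments actr3.S was higher in experiment 2, by 0.93 on the log2 scale. The beta-actin gene actb.L gave 10681 and 9815 in controls and 10772 and 9588 in xSGK1 arrays (95% interval of the log2 change -0.18 to 0.16), and actg1.L 6861 and 7618 against 7347 and 8057. In the unblocked fit no gene of these lists passed, and neither did any other probe set tested.

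**Figure D5:**
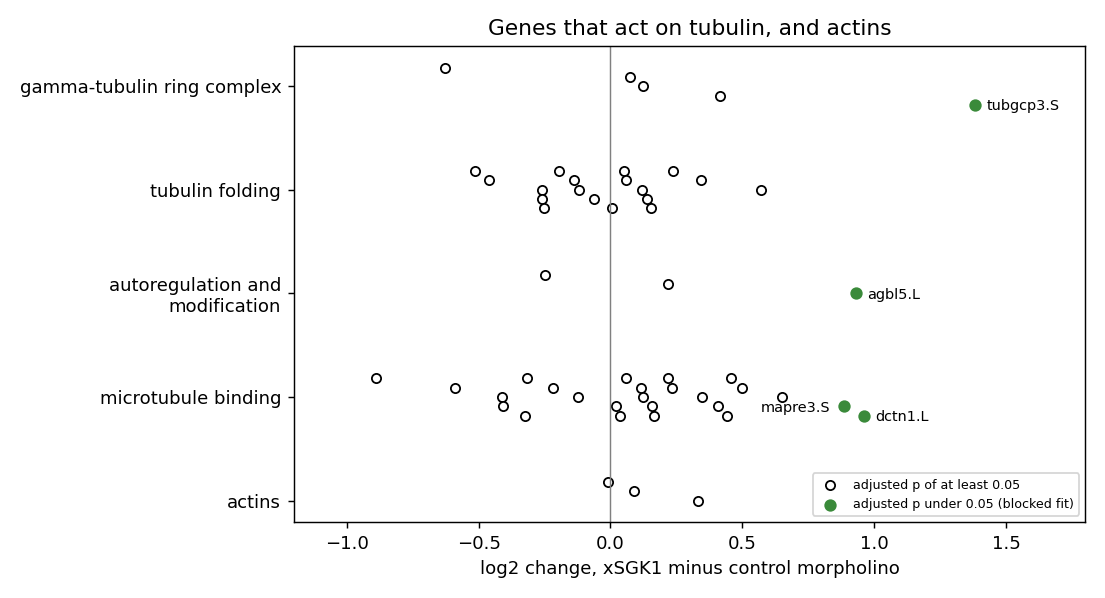
Log2 change between injections of each measured gene of 4 lists of genes that act on tubulin and of the actin list. Each gene is 1 point, filled where limma's adjusted p was under 0.05 in the blocked fit. The filled points, tubgcp3.S, agbl5.L, mapre3.S and dctn1.L, all lie between 0.88 and 1.38, and no gene of the folding or actin list is filled.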

How the data were processed

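Total RNA (100 ng per array) went through 2 rounds of amplification before hybridisation to Affymetrix's Xenopus laevis array, per the labels' protocols. The authors deposited 1 signal intensity per probe set and array, on a linear scale. MAS5 is named in the submitters' processing notes and GCOS 1.4 in the series text. They were rescaled here by array, from a trimmed mean near 500.05 in each. No detection calls were used. The number of arrays limits the precision.

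Values were tested as log2(signal + 16) with limma 3.58.1 in R 4.3.3 (lmFit, eBayes with an intensity trend, two-sided) over the 9251 probe sets that are not controls and have a mean signal of at least 100. Benjamini-Hochberg adjustment ran over all of them, with a threshold of 0.05. Of 9304 probe sets with 1 symbol, 9227 were matched by gene identifier to RefSeq (Xenopus_laevis_v10.1), and 2 symbols changed. Without a named build, no coordinates are given, and no sequence was used here.

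Arrays with the same replicate number were taken to be of 1 experiment, since the series text says that each independent experiment held both injections; the deviations of same-numbered arrays from their group means had a Pearson correlation of 0.838 over the probe sets. The fit without a block is the one laid down, and blocked values stand beside it because they change the calls. With 2 arrays a group, the smallest p of an exact permutation test is 0.333. No source says whether the experiments used separate clutches, so the p-values refer to these arrays only. Those of the blocked fit leave out the difference between experiments. The limma fit also draws the variance of each probe set toward a trend over all probe sets tested. An SE or interval is therefore not the spread of 1 gene alone. For tubb.L S1_at, log2 changes of -1.085 and -1.059 in experiments 1 and 2 stand beside a blocked SE of 0.117.

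The members and gene lists were chosen with earlier results of these data known. Named genes are all members, up to 3 per list (called genes by size, then the smallest unadjusted p in the blocked fit), each gene by its brightest probe set, and the 5 genes most like tubb.L. Other genes named were chosen after their values were seen. Fits were tested on simulated data. Alternatives were other offsets, filters, normalizations and variance models, suffixed probe sets left out, each with and without the block, and each array left out. Figures were drawn with matplotlib 3.10.9.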

Additional observations from a re-analysis of the deposited data

How the results depend on the processing

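Without the block, 0 tubulin probe sets were called between injections. That held under the other offsets, filters, normalizations and variance model and without suffixed probe sets. With the replicate block 6 were called, where 740 of all 9251 probe sets were. Calls over all probe sets are given in brackets for the settings combined with the block. The count was 7 with an offset of 1 (827 of 9251), an offset of 64 (1136 of 9251) or cyclic loess (1561 of 9251). It was 6 with no signal filter (664 of 15491), a filter of 300 (490 of 6266) or quantile normalization (573 of 9251). It was 5 without the intensity trend (543 of 9251), and 4 of 11 without suffixed probe sets (775 of 8280). The injection median of the alpha probe sets was -0.13 without suffixed probe sets, with or without the block, and -0.84 to -0.11 with 1 array left out. That of the beta probe sets was then -0.46 to -0.19. The tubg1.S change was 0.80 with an offset of 64 and 0.48 to 1.29 with 1 array left out.

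Between experiments 13 tubulins were called; 2 were without the injection term, 8 of 11 without suffixed probe sets, and 0 to 9 with 1 array left out. Over all probe sets the main fit called 3775 of 9251. It was 58 of 9251 without the injection term and 3431 of 8280 without suffixed probe sets. The drop without the injection term was therefore not particular to the tubulins. A fit with 1 array left out has 1 array in an experiment, so its count says nothing particular to the tubulins. The alpha median was -0.54 with a filter of 300, -0.76 with quantile normalization, 0.55 without suffixed probe sets and -1.10 to -0.61 with 1 array left out. The beta median was then -0.23 to 0.36. The tubg1.S difference was 0.69 with an offset of 64 and 0.30 to 1.23 with 1 array left out. The causes were not tested, except that leaving out suffixed probe sets removes members by construction.

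Among single probe sets, the injection change of tubal3.1.S turned to -0.00232 (quantile) and -0.00201 (cyclic loess), the same with the block, and the difference between experiments of tubb4b.S turned to -0.00898 (cyclic loess). With 1 array left out the injection change ran from -0.45 to 0.19 for tuba1c.S S2_at, from -2.46 to 0.15 for tuba1cl.3.L the brighter S1_x_at, and from -0.92 to 0.32 and -0.84 to 0.17 for tuba5.S S1_at and S1_x_at. It ran from -0.76 to 0.80 for tubal3.1.L, from -0.92 to 0.96 for tubal3.1.S and from -0.64 to 0.18 for tubb4a.S S1_a_at. The difference between experiments then ran from -0.45 to 0.10 for tuba1c.S the brighter S1_x_at, -0.57 to 0.51 for tubb.L S1_at and -0.62 to 0.66 for tubb4b.S. A block with 1 array left out leaves no residual degree of freedom and was not fitted.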

Other observations

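The other tubulin genes measured were dim. The neuronal beta tubulins tubb2b.S and tubb3.L gave 56.1 to 84.3 and 15.3 to 39.5 over the 4 arrays, tubb6.S 52.2 to 71.8 and tuba1c.L 5.50 to 9.40. Of the centriolar tubulins tubd1.L, a delta tubulin, gave 54.2 and 136 in controls 1 and 2 and 67.9 and 141 in xSGK1 1 and 2, a mean of 99.8, just under the minimum. It was higher in experiment 2 with both injections, as the tubal3.1 homeologs were, and was not tested. The epsilon tubulin tube1.L had a mean of 20.3 and the zeta tubulin tubz1.L 34.3 to 60.4.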
